A study of Drosophila melanogaster with 18 samples.

Results

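The 3 libraries from cells treated with double-stranded RNA (dsRNA) against CG7358, annotated as Flacc, were compared directly with the 3 libraries from cells treated against Vir (Virilizer). These 6 libraries were taken by their titles from a series of 18 libraries in 6 groups, and the 8146 of 17559 gene IDs that passed a filter on low counts were tested. All cells were S2R+, an adherent line derived from Drosophila melanogaster embryos that has features of blood cells, at passages 8 to 10. The dsRNA dose was 10 µg, given in 3 treatments over 6 days, and dsRNA triggers RNA interference against the transcript whose sequence it shares. The 3 control libraries (Ctr) received dsRNA against LacZ, a bacterial gene, on the same schedule. Their levels are given beside those of both knockdowns for part of the named genes. Higher or lower in CG7358 means relative to Vir unless control is named, and does not say which knockdown moved from control. Both treatments left part of the target transcript, and the labels name neither a second dsRNA for a target nor a group with the target restored, so direct action of a dsRNA on other transcripts and action through its target cannot be told apart. Separate cultures for the 3 libraries of a group are not stated in the labels, and the p-values are therefore set by a library-to-library spread that may be technical.

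N6-methyladenosine (m6A) is a methyl mark placed on messenger RNA in the nucleus. The methyltransferase pair Mettl3 and Mettl14 does the chemistry, and a group of accompanying proteins that includes Vir, Fl(2)d, Nito, Hakai and Flacc is needed for it to work on its targets. Vir is the large scaffold of that group and corresponds to VIRMA of mammals. Flacc corresponds to ZC3H13 of mammals and in flies connects Nito to the other subunits. YTH proteins bind the mark, with Ythdc1 in the nucleus and Ythdf in the cytoplasm. The comparison sets transcript levels after knockdown of one of these accompanying subunits against those after knockdown of the other.

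Among these groups each targeted transcript was low only in the cells treated against it. The level of vir was 10.9, 11.1 and 11.2 CPM (counts scaled to library size, here by TMM) in the Vir libraries, 86.5, 91.8 and 86.8 CPM in the CG7358 libraries and 91.3, 88.4 and 89.3 CPM in the control libraries. The level of Flacc was 12.4, 11.3 and 13.4 CPM in the CG7358 libraries, 32.6, 38.2 and 40.2 CPM in the Vir libraries and 43.8, 42.3 and 39.4 CPM in the control libraries. The CG7358 and Vir libraries did not overlap for either gene, so the labels and the targets went together. The vir transcript (chromosome 2R, 23360192 to 23366355, positions from the Ensembl annotation of BDGP6) was 8.00-fold higher in CG7358, with a log2 fold change of 3.00 ± 0.05 (SE) and adjusted p = 3.71e-29 in edgeR's quasi-likelihood test with Benjamini-Hochberg adjustment. Flacc (chromosome X, 18888978 to 18893636) was at 33.5% of its level in Vir, with a log2 fold change of −1.58 ± 0.14 and adjusted p = 6.4e-06 by edgeR. The remaining transcript relative to control was 12.3% for vir in Vir and 29.6% for Flacc in CG7358, so the knockdowns differed in depth as well as in target.

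The other genes of the complex and the readers were close in both knockdowns. Of the 9 m6A writer and reader genes, which include both targets, 1 was higher and 2 were lower in CG7358. The second lower gene was nito, which encodes Spenito, an RNA-binding subunit, and its levels were 152, 148 and 163 CPM in CG7358 against 170, 168 and 173 CPM in Vir. The groups did not overlap, and the log2 fold change was −0.14 ± 0.04 (edgeR adjusted p = 0.0151). That call was lost without Vir replicate 3 or CG7358 replicate 2. The methyltransferase Mettl3 had 33.2, 33.2 and 34.5 CPM in CG7358 against 37.0, 37.7 and 37.96 CPM in Vir, and its log2 fold change of −0.16 ± 0.06 did not pass (edgeR adjusted p = 0.0566), although it did with DESeq2 size factors and in a fit of the 6 libraries alone. For the remaining 5 genes the log2 fold changes were 0.02 ± 0.05 for Mettl14, −0.02 ± 0.03 for fl(2)d, 0.11 ± 0.09 for Hakai, 0.04 ± 0.05 for Ythdc1 and 0.02 ± 0.03 for Ythdf, none of them called. Against control, edgeR called fl(2)d higher in both knockdowns, by 0.39 in CG7358 and 0.41 in Vir. Mettl3 was called higher than control in Vir only, by 0.22.

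Most differences between the knockdowns were small. Of the 8146 genes tested, 1120 differed at an adjusted p under 0.05 in edgeR's test (13.7%), of which 604 were higher in CG7358 (7.41%) and 516 were lower (6.33%). The median size of a called difference was 0.18 on the log2 scale, a change of 13.2%, and the middle range ran from 0.14 to 0.27. An estimate beyond 1.5-fold was seen in 67 called genes (0.822%), 52 of them higher and 15 lower in CG7358. The CG7358 and Vir libraries did not overlap in 1091 of the 1120 called genes, beside 2457 of all genes tested (30.2%). Without Vir replicate 3 the count of called genes was 715, with 392 higher and 323 lower. In a test against a change of 1.5-fold (glmTreat), 5 genes passed: vir, Inos, CG1317, Flacc and CG10359. In the same fit 3064 genes were called for CG7358 against control (37.6%) and 2768 for Vir against control (34%). The direct comparison of CG7358 with the Fl2d knockdown gave 958 calls (11.8%) and that of Fl2d with Vir gave 487 (5.98%). These comparisons share libraries with each other.

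**Figure D1:**
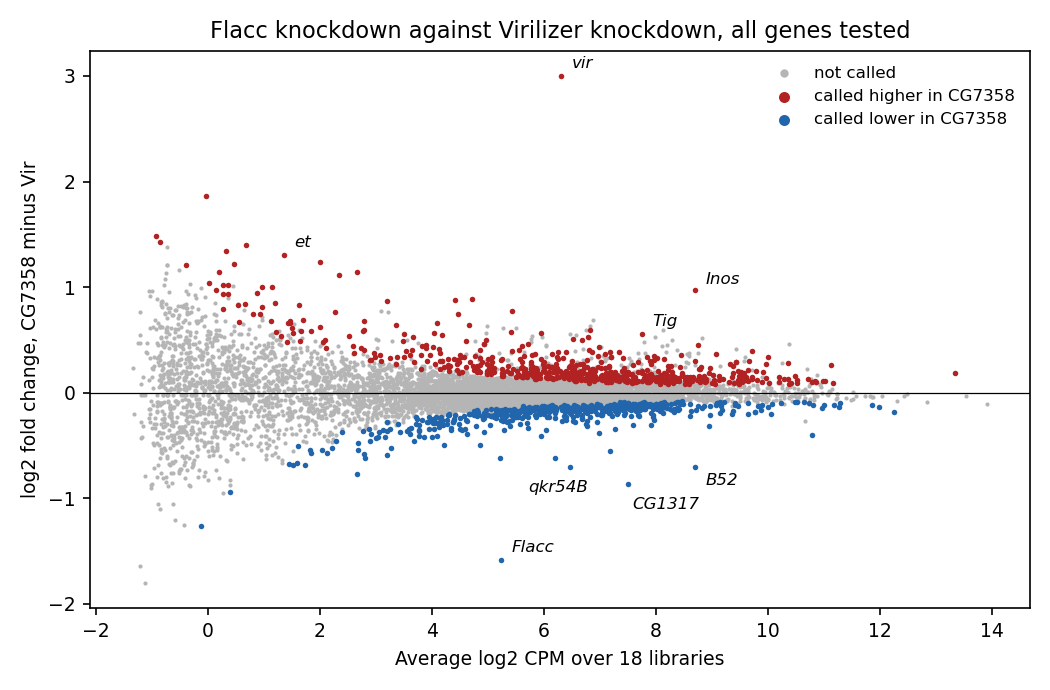
Difference between the knockdowns for each of the 8146 genes tested. The horizontal axis is the average log2 CPM over 18 libraries, the vertical axis is the log2 fold change of CG7358 minus Vir, and colour marks the 604 genes called higher and the 516 called lower in CG7358. The targets vir (3.00) and Flacc (−1.58) stand far from the band of points around 0, and Inos (0.97), CG1317 (−0.86), qkr54B (−0.70) and B52 (−0.70) stand apart from other genes of a like level.

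Library depth was even, with 15743484 to 16707424 counts in the Vir libraries and 15993576 to 17120785 in the CG7358 libraries. Mitochondrial transcripts took 3.78% to 3.88% of counts in Vir and 4.06%, 2.89% and 3.88% in CG7358. On a principal component analysis of the 6 libraries the first axis (34.3% of the variance) separated the Vir libraries (−13.1 to −5.55) from the CG7358 libraries (6.4 to 11.4). The second axis (20.3%) spread the Vir libraries from −10.3 to 11.3.

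Besides Flacc itself, the gene lowered most in CG7358 among genes of at least moderate level (an average log2 CPM of at least 3) was CG1317 (FBgn0035333, chromosome 3L, 2367843 to 2371939). Its levels were 106, 106 and 108 CPM in CG7358, 192, 199 and 192 CPM in Vir, and 202, 205 and 195 CPM in control. The Vir and control libraries lay close together and every CG7358 library lay well below them. The log2 fold change was −0.86 ± 0.03 (edgeR adjusted p = 1.87e-19). In bulk samples, fewer cells of a type and less RNA per cell cannot be told apart, here and in the results that follow.

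A pair of RNA-binding genes followed. The KH-domain gene qkr54B (FBgn0022987, chromosome 2R, 17469624 to 17475129) had 58.7, 61.6 and 57.6 CPM in CG7358, 95.4, 98.2 and 96.2 CPM in Vir and 105, 99.8 and 97.5 CPM in control, with a log2 fold change between the knockdowns of −0.70 ± 0.04 (edgeR adjusted p = 1.4e-14). B52 (FBgn0004587, chromosome 3R, 13661311 to 13666891), an SR protein that acts in splicing, had 290.3, 278 and 276 CPM in CG7358, 472, 444 and 456 CPM in Vir and 388, 406 and 407 CPM in control (−0.70 ± 0.04, edgeR adjusted p = 1.08e-15). The 2 genes differ in where Vir stood: at the control level for qkr54B, and above it for B52, with no overlap among the 3 groups of B52 libraries.

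Irp-1B, an iron regulatory protein, and nemy, a cytochrome b561, were lower than control in both knockdowns and lowest in CG7358. Irp-1B had 44.4, 42.3 and 47.4 CPM in CG7358 against 67.5, 68.7 and 69.7 CPM in Vir and 89.9, 88.1 and 86.1 CPM in control, and the direct log2 fold change was −0.62 ± 0.04 (edgeR adjusted p = 4.52e-12). For nemy the libraries held 5.30 to 6.98 CPM in CG7358, 8.67 to 9.91 CPM in Vir and 12.7 to 13.5 CPM in control (−0.59 ± 0.11, edgeR adjusted p = 0.000294). In both genes the 3 groups formed 3 separate steps. The long noncoding RNA lncRNA:CR44779 also fell in steps, with 19.8 to 23.6, 32.1 to 33.7 and 39.0 to 42.8 CPM (−0.62 ± 0.07, edgeR adjusted p = 4.28e-07). It overlaps CG3655 on the opposite strand, which was higher in CG7358 by 0.30 ± 0.07 on the log2 scale (edgeR adjusted p = 0.00316). The strand setting of the counting is not given, so reads of such a pair may be shared.

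The rest of the 14 genes with the largest decreases at an average log2 CPM of at least 3 had log2 fold changes between −0.55 and −0.42. AIMP3, a cofactor of the aminoacyl-tRNA synthetase complex, had 24.4, 21.5 and 20.9 CPM in CG7358 against 31.6, 31.6 and 30.9 CPM in Vir (−0.49 ± 0.07, edgeR adjusted p = 4.67e-06) and 31.5, 30.1 and 33.6 CPM in control. The antisense neighbour of AIMP3, wmd, was not called. CG6686 was lower at −0.55, and CG16965, which overlaps it on the opposite strand, was higher at 0.34 ± 0.10 (edgeR adjusted p = 0.0175). The ionotropic receptor gene Ir62a was lower at −0.46 and an unannotated ID, FBgn0016080, at −0.42. CG15056 at −0.52 and CG30156 at −0.49 had another arrangement, in which Vir stood above control and CG7358 did not pass against it. For CG30156 the CG7358 libraries, at 15.8 to 16.8 CPM, still lay above the control libraries, at 12.4 to 15.2 CPM. CG30156 overlaps vimar on its own strand. For CG15056 the levels were 8.29, 6.89 and 8.07 CPM in CG7358, 11.3, 10.3 and 11.7 CPM in Vir and 6.19, 7.83 and 8.30 CPM in control. The call for gol (−0.43, edgeR adjusted p = 0.0465) was lost without Vir replicate 2 or any of the CG7358 libraries.

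**Figure D2:**
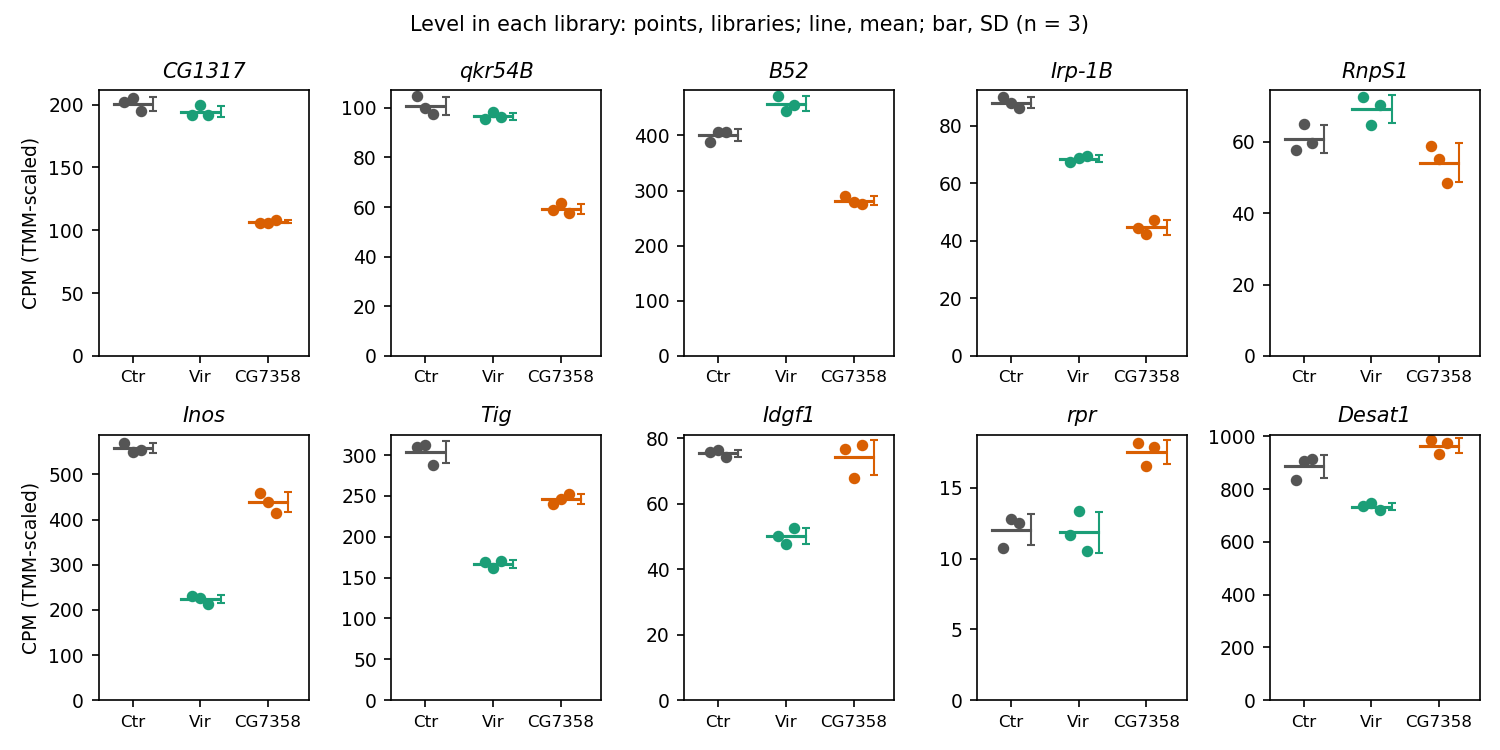
Levels of 10 genes in the control, Vir and CG7358 libraries, in CPM with the axis from 0. Points are libraries, lines are means and bars are SD (n = 3). CG1317 and qkr54B were low only in CG7358, Irp-1B fell in steps, Inos, Tig and Idgf1 were lowest in Vir, rpr was highest in CG7358, and B52, RnpS1 and Desat1 had Vir and CG7358 on opposite sides of the control mean.

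The genes higher in CG7358 were ranked by the same level cut, an average log2 CPM of at least 3, without overlap between the groups. Among them the largest difference after vir was that of Inos (FBgn0025885, chromosome 2R, 7454922 to 7458874). The gene encodes inositol-3-phosphate synthase, the enzyme that makes inositol from glucose 6-phosphate. Its levels were 459.5, 439 and 415 CPM in CG7358, 231, 225 and 214 CPM in Vir, and 570.0, 549.8 and 554 CPM in control. All 3 groups were apart: Inos was reduced in both knockdowns, and far more in Vir. It was 1.96-fold higher in CG7358 than in Vir, with a log2 fold change of 0.97 ± 0.04 (edgeR adjusted p = 9.26e-20).

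Several other genes were low in Vir and near control in CG7358. Idgf1, a secreted chitinase-like growth factor, had 76.6, 68.0 and 77.9 CPM in CG7358, 50.1, 47.7 and 52.6 CPM in Vir and 75.8, 76.3 and 74.2 CPM in control (direct log2 fold change 0.56 ± 0.05, edgeR adjusted p = 5e-10). Khc, the heavy chain of the kinesin motor, had 458, 465 and 458 CPM in CG7358, 345, 326 and 338 CPM in Vir and 447, 446 and 447 CPM in control (0.45 ± 0.03, edgeR adjusted p = 8.7e-13). In both genes the Vir libraries lay below all others, and CG7358 did not pass against control. CG18135 (0.89), CG13229 (0.87), CG43175 (0.75) and CG6621 (0.64) had the same arrangement. The gene rgn, which overlaps barc on the opposite strand, had 56.3, 56.4 and 66.8 CPM in CG7358, 37.9, 28.4 and 38.3 CPM in Vir and 49.4 to 54.6 CPM in control (0.78 ± 0.10, edgeR adjusted p = 0.000146), and CG7358 did not pass against control there either. CG13229 overlaps BBS4 on the opposite strand, which was not called, and CG18135 overlaps CG3808 on its own strand. CG11378 (0.88) differed in that CG7358 was also below control, at 24.8 to 26.8 CPM against 29.5 to 32.9 CPM, with 13.2 to 15.2 CPM in Vir.

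Another set was higher in CG7358 than in both Vir and control. The death activator gene reaper (rpr), whose product blocks inhibitors of apoptosis, had 18.1, 16.6 and 17.9 CPM in CG7358, 11.7, 13.4 and 10.5 CPM in Vir and 10.8, 12.8 and 12.5 CPM in control (direct log2 fold change 0.57 ± 0.08, edgeR adjusted p = 1.49e-05). The methuselah-like receptor gene mthl2 had 61.8, 66.1 and 63.2 CPM in CG7358, 41.7, 46.1 and 41.0 CPM in Vir and 39.3, 40.9 and 43.7 CPM in control (0.57 ± 0.06, edgeR adjusted p = 1.53e-08). In both genes the Vir and control libraries overlapped and all CG7358 libraries were above them. The gene sano was higher than control in both knockdowns and highest in CG7358, with 12.7 to 15.03 CPM against 8.56 to 9.51 CPM in Vir and 6.24 to 7.38 CPM in control (0.64 ± 0.10, edgeR adjusted p = 5.6e-05). For mura (0.59 ± 0.16, edgeR adjusted p = 0.0284) the Vir libraries spread from 71.7 to 115.1 CPM, and the call was lost without Vir replicate 2 or 3 or CG7358 replicate 2 or 3. The gene mura overlaps lncRNA:CR42549 on its own strand.

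**Figure D3:**
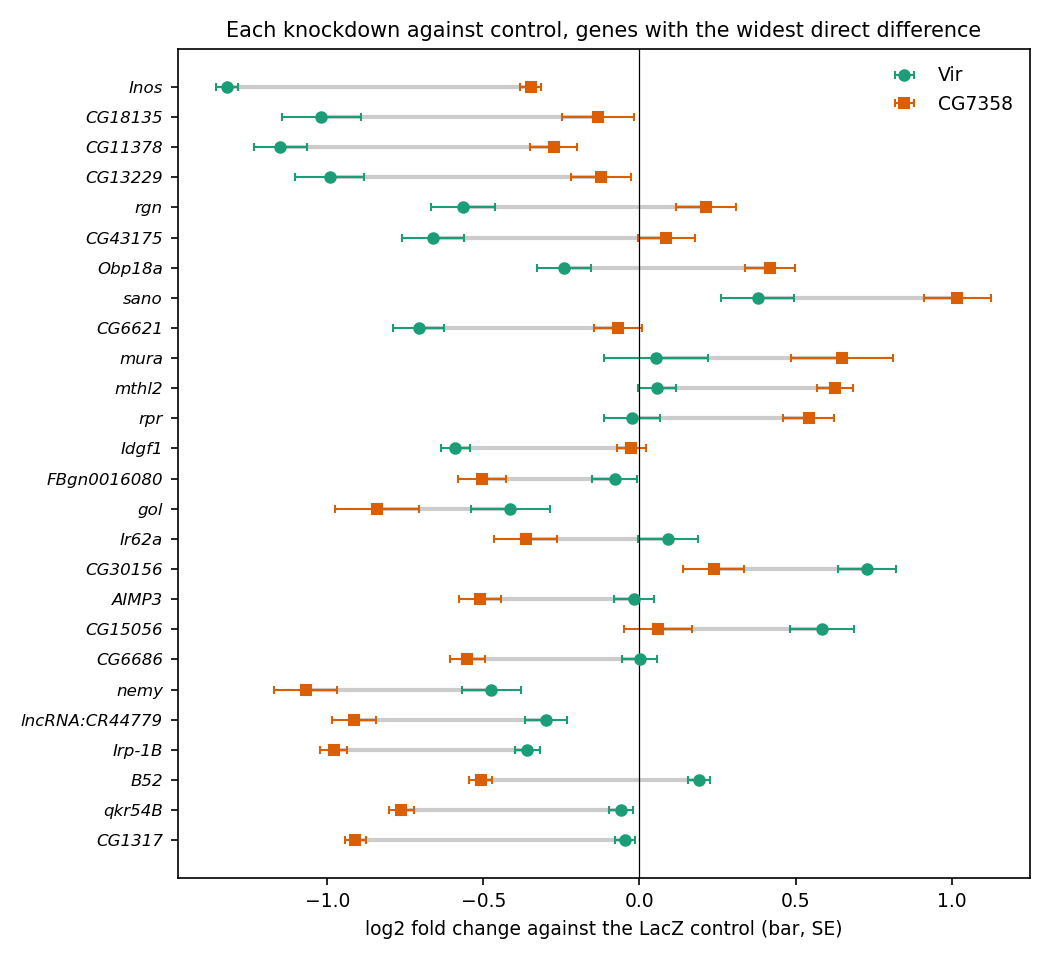
Each knockdown against the LacZ control for 26 genes. They had the widest direct difference among called genes of average log2 CPM 3 or more whose groups did not overlap, with both targets left out. The horizontal axis is the log2 fold change against control, circles are Vir, squares are CG7358 and bars are SE, and both comparisons use the same 3 control libraries. For Inos the values were −1.32 in Vir and −0.35 in CG7358, for CG1317 they were −0.05 and −0.91, and for B52 they were 0.19 and −0.51.

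Some genes for making proteins were called slightly lower in CG7358, and most were not called. Of 70 mitochondrial ribosomal protein genes tested, 0 were higher and 9 were lower (12.9%, beside 6.33% of all genes), and the median log2 fold change was −0.09 beside 0.00 over all genes. The estimate was below 0 in 61 of the 70. The large-subunit gene mRpL44 had 46.6, 43.2 and 43.1 CPM in CG7358 against 53.9, 54.7 and 54.8 CPM in Vir (−0.30 ± 0.04, edgeR adjusted p = 7.01e-06), and mRpL27 had 17.6, 15.3 and 14.7 CPM against 19.2, 18.8 and 20.8 CPM (−0.30 ± 0.07, edgeR adjusted p = 0.0049). The 9 decreases became 4 without Vir replicate 3, 3 without CG7358 replicate 2 or replicate 3, and 5 with the DESeq2 test. Control levels of mRpL44 were 46.2 to 47.4 CPM, near those of CG7358.

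Of 79 cytosolic ribosomal protein genes, 2 were higher and 10 lower (12.7%), with a median of −0.04. RpS25 had 1989, 1925 and 1913 CPM in CG7358 against 2087, 2210.0 and 2148 CPM in Vir (−0.15 ± 0.03, edgeR adjusted p = 0.000867). Control held 1832 to 1927 CPM of RpS25, below Vir, and CG7358 did not pass against it. The 2 exceptions were larger than any decrease in the list that was called: RpL3 had 2426, 2340.0 and 2357 CPM against 1984, 2049 and 1885 CPM (0.27 ± 0.03, edgeR adjusted p = 1.5e-07), and RpS6 had 1478, 1448 and 1338 CPM against 1184, 1193 and 1137 CPM (0.28 ± 0.04, edgeR adjusted p = 2.59e-06). For RpL3 the control libraries, at 2184 to 2272 CPM, lay between the knockdowns, and for RpS6, at 1166 to 1211 CPM, they lay with Vir. RpS15Aa and RpS15Ab, both among the 10, are near-identical copies whose reads may be shared. The count of decreases was 5 without Vir replicate 2 or replicate 3 and 4 without CG7358 replicate 3. Both ribosomal lists hold short transcripts, with a median exonic length of 783 bases for the mitochondrial and 916 for the cytosolic genes against 2055 over all genes tested. With all genes cut into 5 equal bins by exonic length, the shortest bin had 43% of estimates above 0, against 50.6% to 53.5% in the other bins, and the part of length in these lists was not tested.

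The aminoacyl-tRNA synthetases, which load amino acids onto tRNA, had 6 of 19 genes lower and 0 higher (31.6% lower), with a median of −0.06. MetRS had 132, 131 and 131 CPM in CG7358 against 145, 151 and 154 CPM in Vir (−0.19 ± 0.03, edgeR adjusted p = 0.000121), and 145 to 153 CPM in control. GlnRS (−0.14), GluProRS (−0.12) and LysRS (−0.11) were also lower. Against control, CG7358 did not pass in GlnRS, GluProRS or LysRS, and Vir was higher by 0.16, 0.13 and 0.10 on the log2 scale. The 4 calls between the knockdowns held with each library left out. In the proteasome, the complex that degrades proteins tagged with ubiquitin, 5 of 31 genes were lower and 0 higher (16.1%), with the core subunit gene Prosalpha4 at 196, 190.3 and 181 CPM against 214, 207 and 219 CPM (−0.17 ± 0.04, edgeR adjusted p = 0.000929). Control levels of Prosalpha4 were 178 to 191 CPM, near those of CG7358. The proteasome count became 2 without Vir replicate 3 or CG7358 replicate 2, and 3 without CG7358 replicate 3. Of 65 respiratory chain genes 1 was higher (1.54%) and 2 were lower (3.08%), with a median of −0.04. Both shares were under those of all genes, 7.41% higher and 6.33% lower. The numbers lower were 0 without Vir replicate 3, 6 without CG7358 replicate 1 and 1 without CG7358 replicate 2 or 3, and the number higher was 0 without Vir replicate 1.

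Genes of cell division were called in the same direction. In DNA replication 6 of 30 genes were lower and 0 higher (20% lower), and 28 of the 30 estimates were below 0, with a median of −0.06. PolA1, the catalytic subunit of DNA polymerase alpha, had 94.7, 96.8 and 95.9 CPM in CG7358, 110.0, 115.4 and 111 CPM in Vir and 121, 118 and 118 CPM in control (−0.23 ± 0.03, edgeR adjusted p = 1.99e-05). All 3 groups were apart, with CG7358 lowest. The Mcm4 gene dpa, part of the replicative helicase, was lower by 0.13 ± 0.03 (edgeR adjusted p = 0.00439). In the cell cycle and mitosis list 5 of 34 genes were lower and 0 higher (14.7%), among them the spindle checkpoint kinase gene BubR1 (−0.15 ± 0.03, edgeR adjusted p = 0.000952) and the kinesin gene pav, needed for cytokinesis (−0.14 ± 0.04, edgeR adjusted p = 0.00889). That count was 2 without CG7358 replicate 2.

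Among splicing factors, 2 of 32 were higher (6.25%, beside 7.41% of all genes) and 5 lower (15.6%, beside 6.33%), with a median of −0.05. After B52, the strongest were Hrb98DE, an hnRNP A homologue with 565, 566 and 588 CPM in CG7358 against 651, 648 and 661 CPM in Vir (−0.19 ± 0.03, edgeR adjusted p = 1.95e-05), and the SR gene SC35 with 108, 114 and 99.2 CPM against 127, 128 and 134 CPM (−0.28 ± 0.04, edgeR adjusted p = 2.47e-05). Hrb98DE in CG7358 was at the control level of 562 to 591 CPM, whereas SC35 was below the control libraries at 124 to 127 CPM. The KH-domain gene mub was higher by 0.22 ± 0.04 (edgeR adjusted p = 0.000192). Without Vir replicate 3 or CG7358 replicate 1 the number lower was 3.

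In the exon junction complex and nuclear export list 2 of 17 genes were lower (11.8%, beside 6.33% of all genes) and 0 higher. The lower genes were thoc6, of the THO export complex (−0.37 ± 0.06, edgeR adjusted p = 0.000142), and RnpS1, an accessory protein of the junction complex (−0.35 ± 0.08, edgeR adjusted p = 0.0115). RnpS1 had 59.0, 55.2 and 48.4 CPM in CG7358 against 72.5, 64.8 and 70.3 CPM in Vir, without overlap, and 57.6 to 65.0 CPM in control, and neither knockdown passed against control. Both genes overlap others on the opposite strand, and CG9386, the neighbour of RnpS1, was not called. Of 26 RNA decay genes 4 were lower (15.4%, beside 6.33% of all genes) and 0 higher. They included the exosome helicase gene Mtr4 (−0.13 ± 0.03, edgeR adjusted p = 0.00321) and Upf1 of nonsense-mediated decay (−0.12 ± 0.03, edgeR adjusted p = 0.00608). Against control, Mtr4 was higher in both knockdowns, by 0.10 in CG7358 and 0.23 in Vir. The decay count was 2 without CG7358 replicate 1 or replicate 2.

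The small RNA list had 1 of 19 genes higher (5.26%, beside 7.41% of all genes) and 5 lower (26.3%, beside 6.33%). AGO2 and Dcr-2 form the core of the siRNA pathway, the route through which dsRNA acts. AGO2 had 767, 770.1 and 797 CPM in CG7358, 863, 897 and 880.4 CPM in Vir and 854 to 876 CPM in control (−0.18 ± 0.03, edgeR adjusted p = 1.7e-05), and Dcr-2 had 223, 230 and 244 CPM in CG7358 against 254, 264 and 256 CPM in Vir (−0.15 ± 0.03, edgeR adjusted p = 0.00221). Both were lower in every CG7358 library than in any Vir library. AGO2 overlaps CG7739 and Dcr-2 overlaps Rab4 on the opposite strand. The 1 higher gene was r2d2, the partner of Dcr-2 (0.16 ± 0.05, edgeR adjusted p = 0.0293), named for being the single exception after its value was seen, and its call was lost without Vir replicate 1 or 3 or CG7358 replicate 1 or 3. In the dosage compensation and sex determination list 1 of 15 genes was called, and it was lower (6.67%, beside 6.33% of all genes). The gene was msl-1, a subunit of the complex that raises X transcription in males (−0.15 ± 0.04, edgeR adjusted p = 0.00463). That list had 2 lower without Vir replicate 1 or CG7358 replicate 2 and 1 higher without Vir replicate 1.

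**Figure D4:**
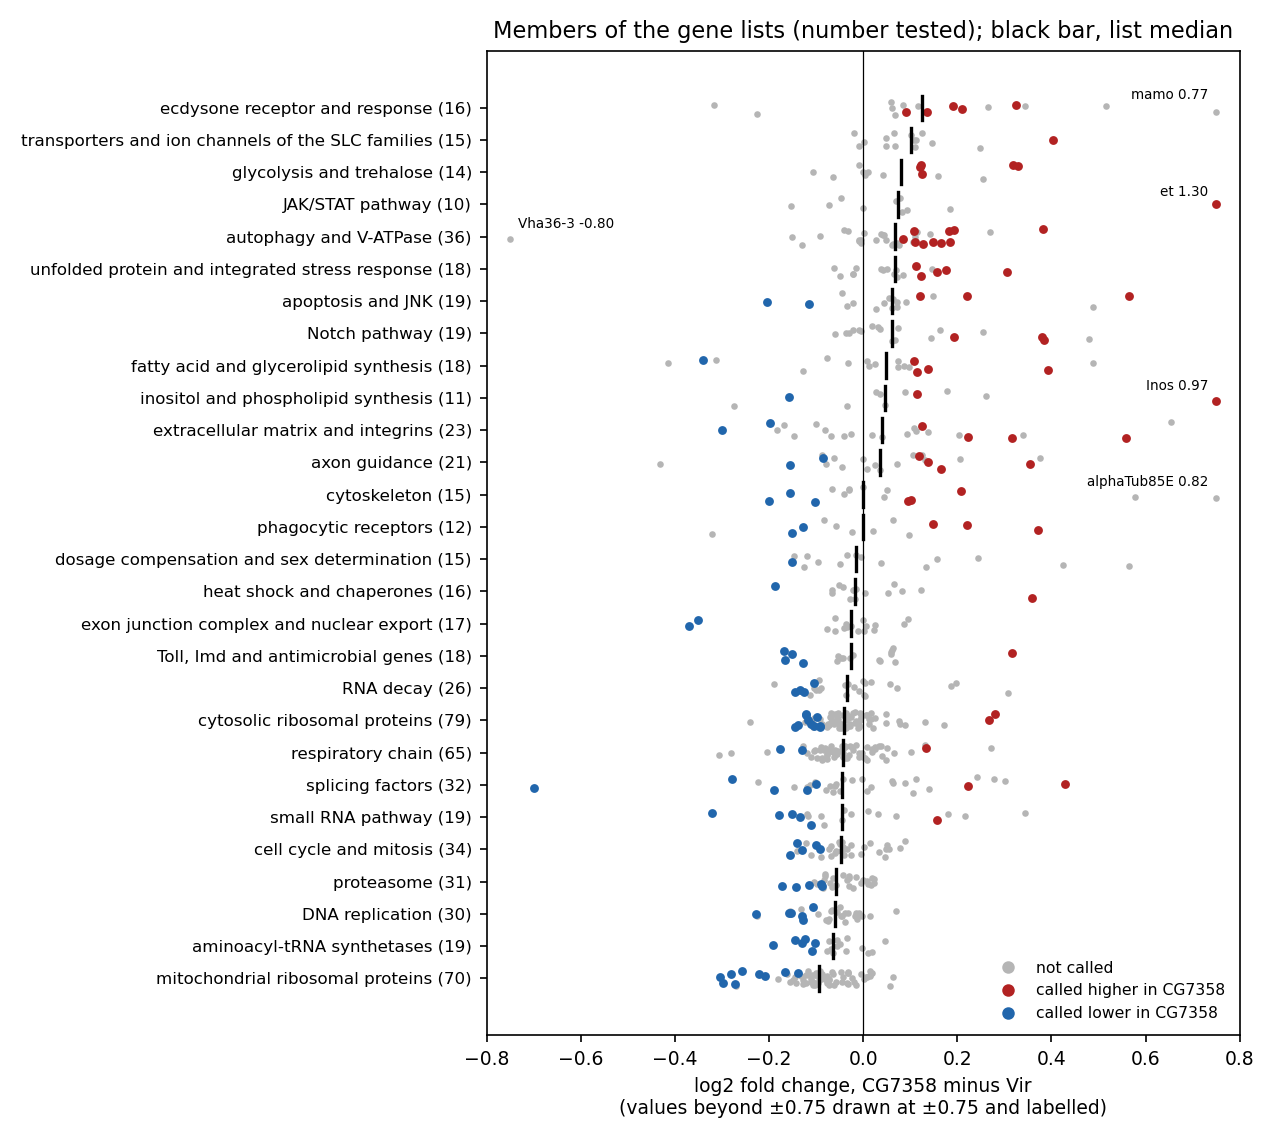
Members of the gene lists by their difference between the knockdowns. Each point is a tested gene, the horizontal axis is the log2 fold change of CG7358 minus Vir with points beyond 0.75 drawn at the edge and labelled, colour marks called genes and black bars are list medians. The medians ran from −0.09 for mitochondrial ribosomal proteins to 0.13 for the ecdysone list, and the autophagy and V-ATPase list had 10 genes called higher and 0 called lower.

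Several groups had the opposite balance. Of 36 genes of autophagy and the V-ATPase, the pump that acidifies lysosomes, 10 were higher in CG7358 and 0 lower (27.8% higher, beside 7.41% of all genes), with a median of 0.07. The pump subunit gene Vha100-2 had 176, 185 and 188 CPM in CG7358, 144, 134 and 143 CPM in Vir and 159, 155 and 147 CPM in control (0.38 ± 0.04, edgeR adjusted p = 8.74e-09). Atg8a, the ubiquitin-like protein that coats autophagosomes, had 329, 311 and 328 CPM against 278, 291 and 278 CPM (0.19 ± 0.03, edgeR adjusted p = 0.00016), with 261 to 287 CPM in control. Atg9, an autophagy membrane protein (0.18 ± 0.04), and VhaPPA1-1, a further pump subunit (0.13 ± 0.03), were higher as well. Without Vir replicate 3 the count was 6.

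In glycolysis and trehalose use, 5 of 14 genes were higher and 0 lower (35.7%), with a median of 0.08. Treh, the enzyme that splits the blood sugar trehalose, had 79.7, 85.8 and 84.3 CPM in CG7358, 64.3, 69.2 and 66.9 CPM in Vir and 79.3 to 85.9 CPM in control (0.32 ± 0.04, edgeR adjusted p = 2.24e-06). The aldolase gene Ald1 had 344, 311 and 323 CPM against 265, 269 and 243 CPM (0.33 ± 0.07, edgeR adjusted p = 0.00399). Treh in CG7358 was at the control level and Ald1 was above it. The count was 3 without Vir replicate 1 or CG7358 replicate 1 or 3, and 2 without Vir replicate 3.

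Lipid genes were called in both directions. In fatty acid and glycerolipid synthesis 4 of 18 genes were higher (22.2%, beside 7.41% of all genes) and 1 lower (5.56%, beside 6.33%). Desat1, the delta-9 fatty acid desaturase, had 987, 933 and 973 CPM in CG7358, 736, 747 and 719 CPM in Vir and 836, 908 and 914 CPM in control (0.39 ± 0.04, edgeR adjusted p = 2.53e-08). The diacylglycerol acyltransferase gene mdy, which makes storage fat, was the 1 lower gene, with 16.8 to 18.1 CPM in CG7358, 21.4 to 22.6 CPM in Vir and 28.7 to 33.0 CPM in control (−0.34 ± 0.08, edgeR adjusted p = 0.00213). The number higher was 2 without Vir replicate 1 or CG7358 replicate 3 and 1 without Vir replicate 2. In inositol and phospholipid synthesis 2 of 11 were higher (18.2%), Inos and Pcyt1. The 1 lower gene (9.09%) was the ethanolamine kinase gene eas (−0.16 ± 0.04, edgeR adjusted p = 0.0057). In that list the number higher was 1 without Vir replicate 1 or 3 or CG7358 replicate 1 or 2, and the number lower was 0 without Vir replicate 3 and 2 without CG7358 replicate 1. The call for Pcyt1 was lost without Vir replicate 1 or 3 or CG7358 replicate 1 or 2, and that for eas without Vir replicate 3.

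The ecdysone list, of the nuclear receptor for the moulting hormone and its response genes, had 5 of 16 genes higher and 0 lower (31.2%), and 14 of the 16 estimates were above 0. Its early response gene Eip74EF had 71.2, 76.6 and 74.5 CPM in CG7358, 61.8, 59.6 and 56.3 CPM in Vir and 55.7 to 57.0 CPM in control (0.32 ± 0.05, edgeR adjusted p = 7.01e-06). The receptor gene EcR was higher by 0.21 ± 0.05 (edgeR adjusted p = 0.0057), a call lost without Vir replicate 2. The count was 3 without Vir replicate 2 or CG7358 replicate 3. In the unfolded protein and integrated stress list 5 of 18 were higher and 0 lower (27.8%), including the transcription factor gene Xbp1 with 785, 769.9 and 748 CPM against 696, 705 and 665 CPM (0.16 ± 0.03, edgeR adjusted p = 0.000449) and the chaperone gene Gp93 (0.12 ± 0.03, edgeR adjusted p = 0.00518). Xbp1 in control was at 728 to 762 CPM, so it was Vir that stood apart. Of 16 heat shock and chaperone genes 1 was higher (6.25%, beside 7.41% of all genes) and 1 lower (6.25%, beside 6.33%). The higher one was the small heat shock gene Hsp27 (0.36 ± 0.08, edgeR adjusted p = 0.00209). Hsp83, the Hsp90 of flies, was lower with 4531, 4445 and 4516 CPM against 5130.0, 5057 and 5164 CPM (−0.19 ± 0.03, edgeR adjusted p = 6.17e-06). Hsp83 in CG7358 was at the control level of 4439 to 4513 CPM.

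Genes of the cell surface and matrix were called in both directions. In the extracellular matrix and integrin list 4 of 23 were higher (17.4%, beside 7.41% of all genes) and 2 lower (8.7%, beside 6.33%). Tig, a matrix ligand of the PS2 integrin, had 240.1, 246 and 252 CPM in CG7358, 169, 162 and 171 CPM in Vir and 310.3, 312 and 288 CPM in control, 3 separate steps with Vir lowest (0.56 ± 0.04, edgeR adjusted p = 1.57e-12), and its antisense neighbour CG13982 was not called. The integrin alpha subunit gene mew (−0.30 ± 0.04, edgeR adjusted p = 9.28e-06) and the laminin gene LanB2 (−0.20 ± 0.03, edgeR adjusted p = 4.09e-05) were lower, and the matrix protease gene Mmp2 was higher (0.22 ± 0.04, edgeR adjusted p = 3.82e-05). In axon guidance 4 of 21 were higher (19%) and 2 lower (9.52%). The netrin receptor gene unc-5 had 61.1, 65.5 and 63.3 CPM against 49.8, 48.0 and 50.7 CPM (0.35 ± 0.05, edgeR adjusted p = 1.61e-06). Control held 68.5 to 75.9 CPM of unc-5, above both knockdowns. The call for unc-5 held with each library left out, as those of robo2, fra and trio did not. In that list the numbers higher and lower were 3 and 0, 2 and 2, and 2 and 0 without Vir replicates 1, 2 and 3, and 4 and 0, 2 and 1, and 1 and 2 without CG7358 replicates 1, 2 and 3.

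In the signalling lists few genes were called. Of 19 Notch pathway genes 3 were higher (15.8%, beside 7.41% of all genes) and 0 lower: the coactivator gene mam (0.39 ± 0.09, edgeR adjusted p = 0.0102), the target gene E(spl)m3-HLH (0.38 ± 0.08, edgeR adjusted p = 0.00121) and aph-1 of the gamma-secretase (0.19 ± 0.04, edgeR adjusted p = 0.00107). Of 18 Toll, Imd and antimicrobial genes 1 was higher and 4 were lower (22.2%, beside 6.33% of all genes). The higher one was spz, the Toll ligand, with 344, 351 and 358 CPM in CG7358, 282, 288 and 276 CPM in Vir and 276 to 293 CPM in control (0.32 ± 0.03, edgeR adjusted p = 2.08e-08). The lower ones included dl, a transcription factor of the same pathway (−0.17 ± 0.04, edgeR adjusted p = 0.00166), and key of the Imd pathway (−0.17 ± 0.04, edgeR adjusted p = 0.00187). Ligand and factor of the Toll pathway thus lay on opposite sides. In the JAK/STAT list 1 of 10 was higher (10%, beside 7.41% of all genes) and 0 lower. With a filter at CPM 5 in 3 libraries the number higher was 0. The gene called was et, a receptor-like antagonist of the pathway, at a low level. It had 2.198 to 2.497 CPM in CG7358 against 0.835 to 1.08 CPM in Vir (1.30 ± 0.24, edgeR adjusted p = 0.000267). It overlaps Zw on the opposite strand, which was not called.

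In the apoptosis and JNK list 3 of 19 were higher (15.8%, beside 7.41% of all genes) and 2 lower (10.5%, beside 6.33%). Besides rpr, the caspase gene Drice had 138, 131 and 131 CPM in CG7358, 120.0, 109 and 114 CPM in Vir and 105 to 109 CPM in control (0.22 ± 0.04, edgeR adjusted p = 0.000202), and Diap1, an inhibitor of caspases, was higher by 0.12 ± 0.03 (edgeR adjusted p = 0.00456). The adaptor gene Dark was lower by 0.12 ± 0.03 (edgeR adjusted p = 0.0216). The calls for Diap1 and Dark were lost without Vir replicate 3, and also without CG7358 replicate 2 for Diap1 and CG7358 replicate 1 for Dark. The list had 0 lower genes without Vir replicate 3 or CG7358 replicate 1 and 1 without Vir replicate 2 or CG7358 replicate 2 or 3, and it had 5 higher without Vir replicate 1 and 2 without Vir replicate 3 or CG7358 replicate 2. In the cytoskeleton list 3 of 15 were higher and 3 lower (20% each). The microtubule-destabilising stathmin gene stai was higher (0.21 ± 0.04, edgeR adjusted p = 0.000414). The gene alphaTub84D was lower (−0.16 ± 0.03, edgeR adjusted p = 0.000569), with a near-identical copy, alphaTub84B, that can share its reads. Against control, alphaTub84D was higher in both knockdowns, by 0.24 in CG7358 and 0.39 in Vir. The numbers higher and lower were 1 and 1 without Vir replicate 1, 1 and 2 without Vir replicate 3, and 1 and 3, 3 and 1, and 2 and 1 without CG7358 replicates 1, 2 and 3. Of 15 transporter genes 1 was higher (6.67%, beside 7.41% of all genes) and 0 lower. The gene was the amino acid transporter gene path, with 55.9, 49.5 and 54.9 CPM against 40.1, 38.9 and 42.0 CPM (0.40 ± 0.05, edgeR adjusted p = 8.92e-07). Without Vir replicate 2 the number of transporter genes higher was 4.

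At an unadjusted p under 0.05 edgeR also gave 0 genes in the direction without calls for the mitochondrial ribosomal, proteasome, synthetase, DNA replication, autophagy, glycolysis, unfolded protein, Notch, JAK/STAT and ecdysone lists, 1 for the cell cycle, RNA decay and exon junction lists, and 4 for the dosage compensation list, which had 4 lower at that p as well. DESeq2 gave 0 in that direction for each of these lists except RNA decay, where it gave 1. With the DESeq2 test the numbers higher also changed to 2 in the fatty acid and axon guidance lists, 5 in apoptosis, 1 in the inositol list and 0 in the small RNA list, and the numbers lower to 3 in the cell cycle list and 1 in the respiratory chain, apoptosis and germline lists. With the 6 libraries alone the proteasome and cell cycle lists each had 3 lower, and the cytoskeleton list had 1 higher and 1 lower.

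Markers of blood cells ranged from near 0 to high levels in both knockdowns. Mean levels in Vir and CG7358 were 3.194 and 2.916 CPM for the plasmatocyte marker He and 15.07 and 14.24 CPM for Hml. For the lamellocyte marker msn they were 906.9 and 971.4 CPM. Of 14 plasmatocyte markers, 13 were tested, with 4 higher in CG7358 (30.8%, beside 7.41% of all genes) and 0 lower. The median was −0.02, and the estimate was below 0 in 7 of the 13, among them Hml, Pxn and srp. The summed level of the markers was 2499 to 2535 CPM in CG7358, 2380.0 to 2398 CPM in Vir and 2334 to 2382 CPM in control. Within that sum, mean levels in CG7358 and Vir were 976 and 897.5 CPM for Fer1HCH and 420.3 and 379.3 CPM for crq. The scavenger receptor genes crq (0.15 ± 0.03, edgeR adjusted p = 0.000414) and Sr-CI (0.22 ± 0.05, edgeR adjusted p = 0.0021) and the ferritin gene Fer1HCH (0.12 ± 0.03, edgeR adjusted p = 0.00315) were among the 4 called higher. The defining marker NimC1 was near 0, with 16 counts over the 3 Vir libraries and 15 over the 3 CG7358 libraries. Of 6 lamellocyte markers, 5 were tested, with 2 higher (40%, beside 7.41% of all genes) and 0 lower. The filamin gene cher had 1109, 1161 and 1194 CPM in CG7358, 942, 905 and 891 CPM in Vir and 1032 to 1084 CPM in control (0.34 ± 0.03, edgeR adjusted p = 1.05e-08). Its antisense neighbour cal1 was not called. The other was the integrin beta subunit gene mys (0.13 ± 0.03, edgeR adjusted p = 0.00473), a call lost without Vir replicate 3. The summed level of the 6 lamellocyte markers was 2625 to 2810.0 CPM in CG7358 against 2336 to 2432 CPM in Vir. The defining marker atilla had 4 counts over the Vir and 14 over the CG7358 libraries. The part of these markers in other results was not tested.

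Most fat body and neuron markers were near 0, while some markers of other tissues were not. Mean levels in Vir and CG7358 were 208.5 and 189.9 CPM for the germline marker aub. They were 107.2 and 108.6 CPM for the muscle marker Mef2, and 61.6 and 59.0 CPM for the gut and epithelium marker shg. The summed germline markers were at 266.9 to 274.6 CPM in Vir and 250.7 to 255.0 CPM in CG7358. Of the crystal cell, neuron, fat body, muscle and gut markers 0 were called by edgeR or by DESeq2, and at an unadjusted p under 0.05 edgeR gave 1 neuron and 1 muscle marker. The summed neuron markers were at 25.4 to 35.8 CPM in Vir and 34.8 to 44.6 CPM in CG7358, while the defining markers nSyb, Syt1 and ChAT had 13, 2 and 1 counts over the Vir libraries and 13, 6 and 3 over the CG7358 libraries. The summed fat body markers were at 2.06 to 3.11 CPM in Vir and 2.87 to 3.39 CPM in CG7358. Of 7 germline markers 1 was higher (14.3%, beside 7.41% of all genes) and 2 were lower (28.6%, beside 6.33%). The higher one was osk (0.62 ± 0.16, edgeR adjusted p = 0.0072) and the lower ones were aub and tej. Only aub (−0.13 ± 0.03, edgeR adjusted p = 0.00324) kept its call with each library left out. Of 3 crystal cell markers, 2 were tested and 0 called, with a summed level of 17.3 to 21.7 CPM in Vir and 17.7 to 19.8 CPM in CG7358.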

How the data were processed

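Per the labels' protocols, RNA was extracted with Trizol and libraries were prepared with a directional kit. The deposited values are raw, whole-number read counts for each FlyBase gene ID. The submitters' processing notes name BDGP6, STAR 2.5.1b and featureCounts 1.5.1. The annotation release is not given in the sources used here, nor are the strand setting and the handling of overlapping genes or multiply mapped reads. Ensembl's BDGP6 annotation holds 17253 of the 17559 IDs, and the other 306 appear by ID.

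The test was edgeR 4.0.16 in R 4.3.3: filterByExpr, TMM scaling, and a robust quasi-likelihood fit of all 18 libraries with 1 coefficient per group and the contrast CG7358 minus Vir. Calls were made at an adjusted p under 0.05 (Benjamini-Hochberg, 8146 genes). The SE is the log2 fold change divided by the square root of F. The common biological coefficient of variation was 0.0432, with 12 residual degrees of freedom. Replicates differed by more than sampling noise, and all were kept.

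Named genes are the m6A genes, the 14 highest and 14 lowest called genes of average log2 CPM 3 or more whose groups did not overlap, up to 4 called members of each of 37 lists, the 6 smallest p-values, and up to 6 genes in each direction called in opposite directions against control. Genes outside this rule are said to be so, are antisense neighbours or copies, or passed glmTreat. The members and lists were chosen with earlier results of these data known, and 28 listed members were not matched. Alternatives were DESeq2 1.42.0 size factors and test, no filter, a filter at CPM 5 in 3 libraries, a block for the replicate number, the 6 libraries alone, glmTreat against 1.5-fold, and each library left out.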

Additional observations from a re-analysis of the deposited data

Results flagged for a closer look

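For 21 genes of moderate or high level (average log2 CPM 3 or more), the knockdowns were called on opposite sides of the control by edgeR, with CG7358 above Vir in 16 and below it in 5, and the direct difference, CG7358 minus Vir, was called as well. The 11 named here are the 5 lower in CG7358 and the 6 with the largest difference among the 16 higher. Both comparisons with control use the same 3 control libraries. Lower in CG7358 were B52 (log2 fold change −0.70), the annotated CG31689 (−0.32), the ABC transporter gene MRP (−0.31), the unannotated ID FBgn0032679 (−0.22) and Patronin, which protects microtubule minus ends (−0.21). Higher in CG7358 were the odorant-binding protein gene Obp18a (0.66), the glutathione S-transferase gene GstT4 (0.53), Desat1 (0.39), Vha100-2 (0.38), CG17490 (0.37) and the filamin gene cher (0.34).

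B52 was the widest of those lower in CG7358, at −0.51 against control in CG7358 and 0.19 in Vir. GstT4 had 134, 134 and 128 CPM in CG7358, 88.6, 98.7 and 87.3 CPM in Vir and 113, 109 and 111 CPM in control, 3 groups without overlap (0.25 in CG7358 and −0.28 in Vir against control). For MRP the libraries held 404 to 444 CPM in CG7358, 522 to 539 CPM in Vir and 487 to 499.6 CPM in control. The group order was the reverse of that of GstT4, again with no overlap. Obp18a had 22.9, 24.4 and 24.97 CPM in CG7358, 12.8, 17.2 and 15.9 CPM in Vir and 18.3, 15.9 and 19.98 CPM in control, where Vir and control overlapped.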

How the results depend on the processing

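The direction of all 134 called named genes was kept in every alternative run, and 94 kept their call with each library left out. The targets kept theirs throughout, with log2 fold changes over the libraries left out of 2.97 to 3.01 for vir and −1.67 to −1.52 for Flacc. Counts of called genes were 1119 with DESeq2 size factors, 898 with the DESeq2 test, 1157 without a filter, 1122 with a CPM above 5 in 3 libraries and 951 with the 6 libraries alone. With glmTreat 5 genes passed, 3 higher and 2 lower, and the count over 1.5-fold was 5. That count was 29 with the CPM filter, under which fewer low genes are tested. With 1 library left out, calls ranged from 715 to 947, higher from 392 to 491, lower from 323 to 459, and those over 1.5-fold from 56 to 67. The lowest, 715, with 392 higher and 323 lower, came without Vir replicate 3, and the cause was not tested. Signs turned in uncalled genes: over the libraries left out, log2 fold changes ran from −0.017 to 0.0454 for Mettl14, from −0.0057 to 0.0578 for Ythdc1 and from −0.0147 to 0.0475 for Ythdf. Values below 0 came without Vir replicate 1, and for Mettl14 (−0.009) and Ythdf (−0.0028) also without CG7358 replicate 3. Deviations of same-numbered libraries from their group means correlated at −0.0383, 0.0279 and 0.0576 for numbers 1, 2 and 3. Between libraries of unlike number the correlations ran from −0.102 to 0.0755. With 3 libraries in each group these values cannot show whether a number stands for a shared batch, which the labels do not state. With the replicate number as a block 1093 genes were called, and 823 with the block in the 6 libraries alone. Calls went with level: of 5 bins by level, 3.93% of genes in the lowest and 26.2% in the highest were called, and the part of depth in this was not tested.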

Other observations

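Some of the most abundant transcripts outside the gene lists differed as well, and these genes were chosen after their values were seen. The translation elongation factor gene eEF2, the gene with the highest level among those called, was higher in CG7358 (log2 fold change 0.19 ± 0.03, edgeR adjusted p = 1.7e-05), and so were the lysosomal protease gene cathD (0.19 ± 0.03, edgeR adjusted p = 1.33e-05) and the endoplasmic reticulum genes Fkbp14 (0.21 ± 0.03, edgeR adjusted p = 2.29e-06) and CaBP1 (0.19 ± 0.03, edgeR adjusted p = 1.23e-05). The long noncoding RNA lncRNA:CR42862 (chromosome 3L, 224106 to 230964) had 1184, 1302 and 1353 CPM in CG7358, 1707, 1641 and 1708 CPM in Vir and 1850.0, 1818 and 1785 CPM in control. The CG7358 libraries lay below all others, with a direct log2 fold change of −0.40 ± 0.04 (edgeR adjusted p = 1.81e-07).

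Of the 67 called genes beyond 1.5-fold, 49 had an average log2 CPM under 3, and 41 of these 49 were higher in CG7358. Low genes leaned that way without regard to calls. Of the 248 tested genes beyond 1.5-fold, called or not, 221 were under that level, and of the 248, 160 were higher and 88 lower. In the lowest of 5 bins by level, 55.2% of estimates were above 0. CG10359 had 9.22, 8.49 and 9.16 CPM in CG7358, 3.69, 4.17 and 4.25 CPM in Vir and 4.46 to 5.21 CPM in control. The voltage-gated calcium channel gene Ca-alpha1D was chosen after its values were seen, and it overlaps asRNA:CR43806 on the opposite strand. Ca-alpha1D had 1.99, 2.61 and 3.71 CPM in CG7358 against 0.911 to 1.21 CPM in Vir. Against control, edgeR called CG7358 and did not call Vir in both CG10359 and Ca-alpha1D, although for CG10359 the Vir libraries lay below the control libraries.

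Genes on the small chromosome 4 leaned one way: 73.5% of 83 estimates were above 0, with a median log2 fold change of 0.10, while 3 were called higher and 1 lower (4.82%, beside 13.7% of all genes). The share of all counts on that chromosome was 0.846%, 0.793% and 0.833% in Vir, 0.818%, 0.849% and 0.875% in CG7358 and 0.873% to 0.909% in control. The shares of the knockdowns overlapped, and no test of the chromosome was made. On the X 125 of 1401 tested genes were higher and 72 lower in CG7358 (14.1% called, beside 13.7% of all genes). The median was 0.01, and 52.5% of estimates were above 0. Over all 8146 genes tested, 604 were higher (7.41%) and 516 lower (6.33%).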
